A study of Rattus norvegicus with 56 samples.

Results

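Described here are 9 genes of the Hippo pathway and its YAP/TEAD transcription programme, in tubules microdissected from rat kidneys within hours of ureteral ligation. They were chosen by name out of 32883 gene identifiers in the deposited tables, as members of the pathway and common readouts of its activity. All 9 were found by symbol in the 30 min table and carried to the 3 h table by identifier, where Ccn1 and Ccn2 appear under their older symbols Cyr61 and Ctgf.

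In the Hippo pathway the kinases Stk3 and Stk4, with the scaffold Sav1, activate the kinases Lats1 and Lats2, which work with Mob1a and Mob1b. Active Lats kinases phosphorylate the co-activators YAP (gene Yap1) and TAZ (gene Wwtr1) and hold them out of the nucleus. When the kinases are quiet, as in stretched or spread epithelial cells with tensed actin, YAP and TAZ enter the nucleus, join the TEAD DNA-binding proteins and switch on a set of target genes. Ccn1 and Ccn2 encode secreted matricellular proteins and are the most widely used of these targets. Ankrd1, a nuclear ankyrin repeat protein, and the receptor tyrosine kinase Axl are others. Amotl2, a junctional protein that binds YAP, and Lats2 are both targets and inhibitors of YAP. The LIM protein Ajuba binds Lats kinases at junctions under tension. In the kidney, Ccn2 is known as a marker of tubular injury and fibrosis.

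The rats were male Sprague-Dawley animals of 120 to 160 g, and their age is not given in the labels. In the UUO group (unilateral ureteral obstruction) the left ureter was tied, and in the sham group it was exposed but not tied. Cortical collecting ducts (CCD), which fine-tune water and sodium excretion, and cortical thick ascending limbs (cTAL), which reabsorb salt, were microdissected at 30 min or 3 h, which gave 4 UUO and 4 sham replicates per segment and time. Each CCD replicate had 2 libraries and each cTAL replicate had 1, for 48 libraries in all, and libraries with the same number in an arm were taken as 1 animal. No allele or drug is named in the labels for any group, and a dissected tubule holds several cell types. The values are TPM per gene, which are scaled for gene length and library total and keep no depth, so the sequencing depth is unknown. A library held 8744 to 11916 genes of at least 1 TPM at 30 min, and at 3 h it held 9585 to 10750. Each time has its own table, so levels are compared within a time only.

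The dissected segments carried their own markers, which at 3 h summed lower with UUO than with sham in both segments, without overlap. At 3 h the 6 principal cell markers summed to 5404 to 9862 TPM in CCD of UUO animals and 15593 to 18231 TPM in CCD of sham animals, and the 4 thick ascending limb markers to 30467 to 35359 TPM in cTAL of UUO animals and 35728 to 61083 TPM in cTAL of sham animals. At 3 h, 3 CCD libraries exceeded 5000 TPM of the thick ascending limb gene Umod, and 1 sham cTAL library exceeded 100 TPM of the principal cell gene Aqp2. None passed these limits at 30 min.

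Of the 9 genes, 6 had an entry in the RefSeq promoter table for the rat build GRCr8, and Ankrd1, Lats2 and Tead1 had none. The bases before the start site were searched on both strands for GGAATG, the core of the sequence that TEAD proteins bind, over 250 bases per gene. Ccn2 held 3 copies, Ccn1, Amotl2, Ajuba and Yap1 held 1 each, and Axl held 0. Among all 33469 promoters in the table, 12.06% held at least 1 copy and 27 (0.081%) held at least 3. A match describes the letters and shows no binding. The Ccn1 and Ccn2 stretches are shown in full because these targets gave the largest called changes, with the motif in capitals (CATTCC is GGAATG read on the other strand). They run 5′ to 3′ and end at the base before the start, at chr2:237225690-237225939, minus strand for Ccn1 and chr1:22624615-22624864, minus strand for Ccn2 (GRCr8).
Ccn1: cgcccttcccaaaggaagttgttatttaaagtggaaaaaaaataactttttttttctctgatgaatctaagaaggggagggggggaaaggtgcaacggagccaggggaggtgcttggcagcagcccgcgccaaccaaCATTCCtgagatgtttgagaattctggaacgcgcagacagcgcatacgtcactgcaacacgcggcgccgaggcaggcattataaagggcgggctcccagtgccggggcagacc
Ccn2: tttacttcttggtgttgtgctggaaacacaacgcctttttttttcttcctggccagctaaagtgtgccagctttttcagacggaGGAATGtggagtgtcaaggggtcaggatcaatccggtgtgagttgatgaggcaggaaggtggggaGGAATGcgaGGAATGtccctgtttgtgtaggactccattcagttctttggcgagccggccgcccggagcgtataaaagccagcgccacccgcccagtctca

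In Ccn2 the copies began 166, 101 and 92 bases before the start, the last 2 separated by only 3 bases. In Ccn1 the copy began 113 bases before the start. Shorter windows with 20 bases on either side of the motif, where the searched stretch allowed, show the single copies of the junctional genes and of Yap1 itself, with the motif again in capitals. They lie at chr8:112182530-112182575, plus strand for Amotl2, chr15:32000253-32000292, minus strand for Ajuba and chr8:13451528-13451573, minus strand for Yap1 (GRCr8).
Amotl2: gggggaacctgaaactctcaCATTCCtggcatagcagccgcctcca
Ajuba: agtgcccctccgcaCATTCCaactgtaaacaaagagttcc
Yap1: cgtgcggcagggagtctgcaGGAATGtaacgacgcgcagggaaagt

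These copies began 76 bases before the start of the promoter entry in Amotl2, 236 in Ajuba and 116 in Yap1. For Amotl2 and Yap1 that start lies within the gene. The gene spans chr8:112182060-112198032 for Amotl2 and chr8:13380551-13451640 for Yap1, so both copies lie inside it and not upstream of it. None of the 6 promoters held an AP-1 motif (TGANTCA, in 6.34% of all promoters) or the CArG box of SRF (in 1.5%) in the same 250 bases.

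Where the genes are found in sham tubules was examined first, on CCD minus cTAL within each sham animal. The differences below are in log2(TPM + 1), tested with limma and Benjamini-Hochberg adjustment over all genes tested, and called at an adjusted p under 0.05. Ajuba was more abundant in CCD and Axl in cTAL at both times, and Lats2 was higher in CCD with a call at 3 h that most other settings lost. Ajuba stood at 9.59, 17.5, 23.4 and 11.4 TPM in CCD and at 2.22, 2.93, 4.44 and 3.41 TPM in cTAL at 30 min. Every CCD value lay above every cTAL value, and the difference was 1.82 (SE 0.17, adjusted p = 0.000171, limma), or 1.48 at 3 h (adjusted p = 0.00588). Lats2 was higher in CCD by 1.23 at 30 min (adjusted p = 0.000763, limma) and by 0.82 at 3 h (adjusted p = 0.0303). At 3 h only its CCD values reached the 1 TPM needed to be tested, so that p-value is a description. The 3 h call of Lats2 was lost in 3 of the 4 fits that left out a sham replicate (adjusted p 0.0902 to 0.105, held only without replicate 4) and in 6 of 9 other settings (0.051 to 0.115), median-of-ratios rescaling among them (0.068). That of Ajuba at 3 h was lost with CCD library 2 alone (0.101). Amotl2 was higher in CCD by 0.85 at 30 min (adjusted p = 0.011, limma) and by 1.23 at 3 h (adjusted p = 0.00904).

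Axl ran the other way. It stood at 0.455, 0.765, 0.890 and 1.36 TPM in CCD and at 3.90, 2.61, 5.42 and 9.75 TPM in cTAL at 30 min, with no overlap. CCD was lower by 1.69 (SE 0.21, adjusted p = 0.000558, limma) at 30 min and by 1.70 (SE 0.25, adjusted p = 0.00276) at 3 h. Only genes with 1 TPM or more in 4 or more replicates were tested. For Axl the cTAL values met this filter without those of CCD at both times. A gene this low in CCD could be tested only by being higher in cTAL, so these p-values are a description. Ccn1 was higher in CCD at 30 min, at 1.54, 5.74, 11.3 and 2.72 TPM in CCD and 0.970, 0.390, 2.28 and 1.71 TPM in cTAL, but the segments overlapped (difference 1.20, adjusted p = 0.0259, limma). The Ccn1 call was lost without sham replicate 2 (adjusted p = 0.0781) or replicate 3 (0.102) and in 4 of 8 other settings (0.0557 to 0.109), and the 30 min call of Amotl2 in 3 of 9 other settings (0.0547 to 0.0653). Median-of-ratios rescaling ended both. Ccn2 did not pass in either test (0.50, 95% interval -0.32 to 1.33, at 30 min and -0.07, interval -0.77 to 0.63, at 3 h).

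In all, 7 of the 9 genes passed the filter at 30 min, and 4 were called higher and 1 lower in CCD. Of all genes tested, 41.7% were called higher and 13.2% lower in CCD. At 3 h 6 passed, and 3 were higher and 1 lower, against 27.7% and 10.4% of all genes. The filter was met by 1 segment alone for some of these genes. At 3 h Lats2 passed through CCD (1.00 to 2.53 TPM in CCD and 0.44 to 0.67 TPM in cTAL) and Axl through cTAL (0 to 0.61 TPM in CCD and 1.04 to 5.07 TPM in cTAL). At 30 min the 4 cTAL values of Axl met it without those of CCD. These counts, the p-values of Axl and the 3 h p-value of Lats2 are therefore a description. Such shares are therefore common between these segments, and the median gene was higher in CCD by 0.30 at both times. Macrophage and leukocyte markers were low in CCD too: 6 of 7 fell below cTAL at 30 min, and their summed level was 28.6 to 55.9 TPM in sham CCD and 84.9 to 270.2 TPM in sham cTAL. Endothelial markers were lower in CCD as well at 30 min: 4 of the 5 tested were called lower, and they summed to 12.8 to 45.8 TPM in sham CCD and 50.9 to 116.5 TPM in sham cTAL. The part of these cells in the Axl difference was not tested.

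**Figure D1:**
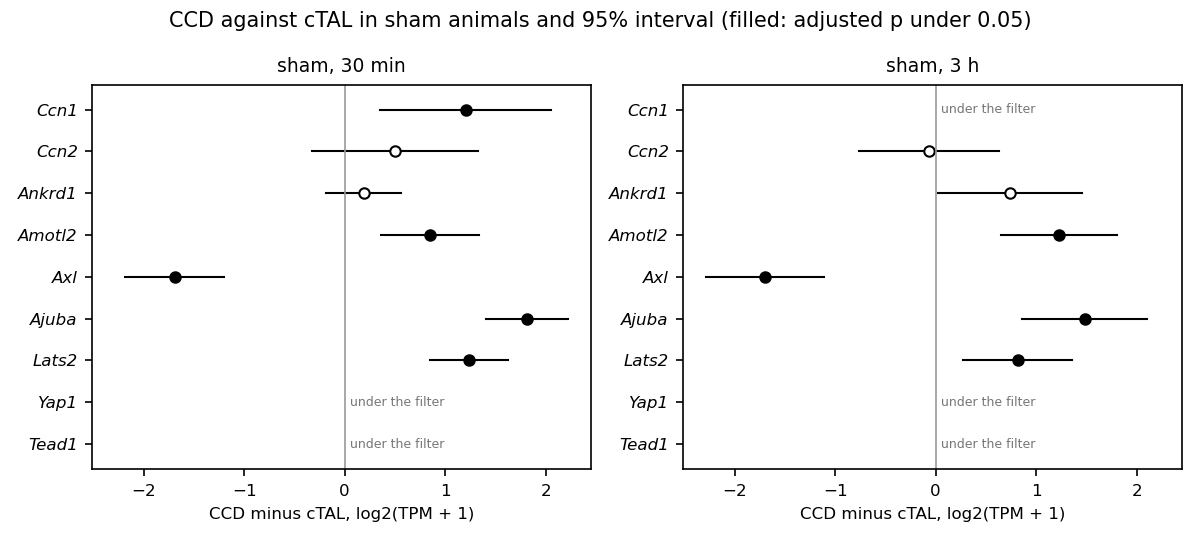
Difference between CCD and cTAL in sham animals for the 9 genes, in log2(TPM + 1), with the 95% interval of each difference at 30 min (left) and 3 h (right). Filled points passed an adjusted p under 0.05: Ajuba, Lats2 and Amotl2 lie to the right at both times and Axl to the left at both.

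The abundance of the other genes differed widely within a segment. The effector Yap1 itself was listed at very low levels. It ranged over replicates at 0.13 to 0.31 TPM in UUO CCD and 0.06 to 0.495 TPM in sham CCD at 30 min, and it was listed at 0 in all 4 UUO cTAL libraries and 3 of 4 sham cTAL libraries at 3 h. Tead1 stayed at or below 0.985 TPM in every CCD replicate at either time. TAZ (Wwtr1), the other co-activator and the one of the pair with the higher listed level, averaged 2.48 ± 1.56 TPM in UUO CCD and 8.44 ± 1.64 TPM in sham CCD at 30 min (SD, n = 4). Tead3 was the only TEAD gene to pass the filter in the UUO against sham tests. These TPM values do not say how much protein was present.

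At 30 min none of the Hippo genes was called in either segment. In CCD 6 of the 9 passed the filter on low values (1 TPM or more in 4 or more of the 8 replicates) and 0 were called, where 0.0264% of all genes tested were called. Unadjusted p-values under 0.05 were found for 1789 genes, none of them among the 6. Ccn2 stood at 3.69, 12.2, 7.995 and 9.36 TPM in UUO CCD, against 5.11, 8.89, 7.84 and 7.13 TPM in sham CCD. The UUO values spread on both sides of the sham values (log2 change 0.20, 95% interval -0.56 to 0.95).

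The junctional genes gave lower values in UUO CCD at 30 min without passing the test. Amotl2 stood at 6.31, 6.41, 20.4 and 14.3 TPM in UUO CCD, against 15.4, 17.3, 35.5 and 16.6 TPM in sham CCD. UUO replicates 1, 2 and 4 lay below every sham replicate and UUO replicate 3 within them (log2 change -0.89, SE 0.42, adjusted p = 0.328, limma). Ajuba gave a similar picture, at 5.82, 5.17, 9.14 and 12.6 TPM in UUO CCD and 9.59, 17.5, 23.4 and 11.4 TPM in sham CCD, with overlap (log2 change -0.76, SE 0.34, adjusted p = 0.322, limma). The median of all genes was -0.31 in this comparison, and -0.02 after median-of-ratios rescaling, under which the values were -0.56 for Amotl2 and -0.43 for Ajuba.

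In cTAL at 30 min, Ccn1 and Ccn2 gave the largest values of the set, from some of the UUO animals. Ccn2 stood at 3.1, 19.2, 33.0 and 58.7 TPM in UUO cTAL, against 7.28, 2.80, 2.22 and 6.73 TPM in sham cTAL. UUO replicates 2, 3 and 4 lay above every sham replicate, and UUO replicate 1 lay within them (log2 change 1.94, SE 0.74, unadjusted p = 0.0284, adjusted p = 1, limma). Ccn1 stood at 1.74, 3.84, 7.22 and 20.9 TPM in UUO cTAL, against 0.970, 0.390, 2.28 and 1.71 TPM in sham cTAL. The same 3 UUO replicates exceeded all sham replicates (log2 change 1.65, SE 0.58, unadjusted p = 0.0191, adjusted p = 1, limma). Of the 9 genes 6 passed the filter and 0 were called, against 0.00910% of all genes, with 250 genes at an unadjusted p under 0.05. Fibroblast, pericyte and smooth muscle markers summed to 15.1 to 113 TPM in UUO cTAL and 9.59 to 19.6 TPM in sham cTAL, with 3 of 8 and 2 of 8 of the markers averaging 1 TPM or more. Red cell markers summed to 674 to 4446 TPM in UUO cTAL and 18.8 to 1026 TPM in sham cTAL. Intercalated cell markers did not overlap, at 9.5 to 17.6 TPM in UUO cTAL and 0.77 to 8.68 TPM in sham cTAL, while principal cell markers did, at 79.4 to 111.6 TPM in UUO cTAL and 52.3 to 110.7 TPM in sham cTAL. Proximal tubule markers overlapped too, at 72.5 to 876 TPM in UUO cTAL and 10.4 to 349 TPM in sham cTAL. In these dissected tubules a higher share of such cells and more RNA per cell cannot be told apart, and their part in the Ccn1 and Ccn2 values was not tested.

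The segments were then compared in their response at 30 min, as the change in CCD minus the change in cTAL within numbered animals. The 4 genes with the largest differences all gave negative values: Ccn1 -1.72 (adjusted p = 0.169, limma), Ccn2 -1.74 (0.253), Amotl2 -1.19 (0.297) and Ajuba -0.995 (0.0932). None of the 7 tested was called, and neither was any other gene (0%), while 1817 genes had an unadjusted p under 0.05. The median of all genes was -0.23.

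**Figure D2:**
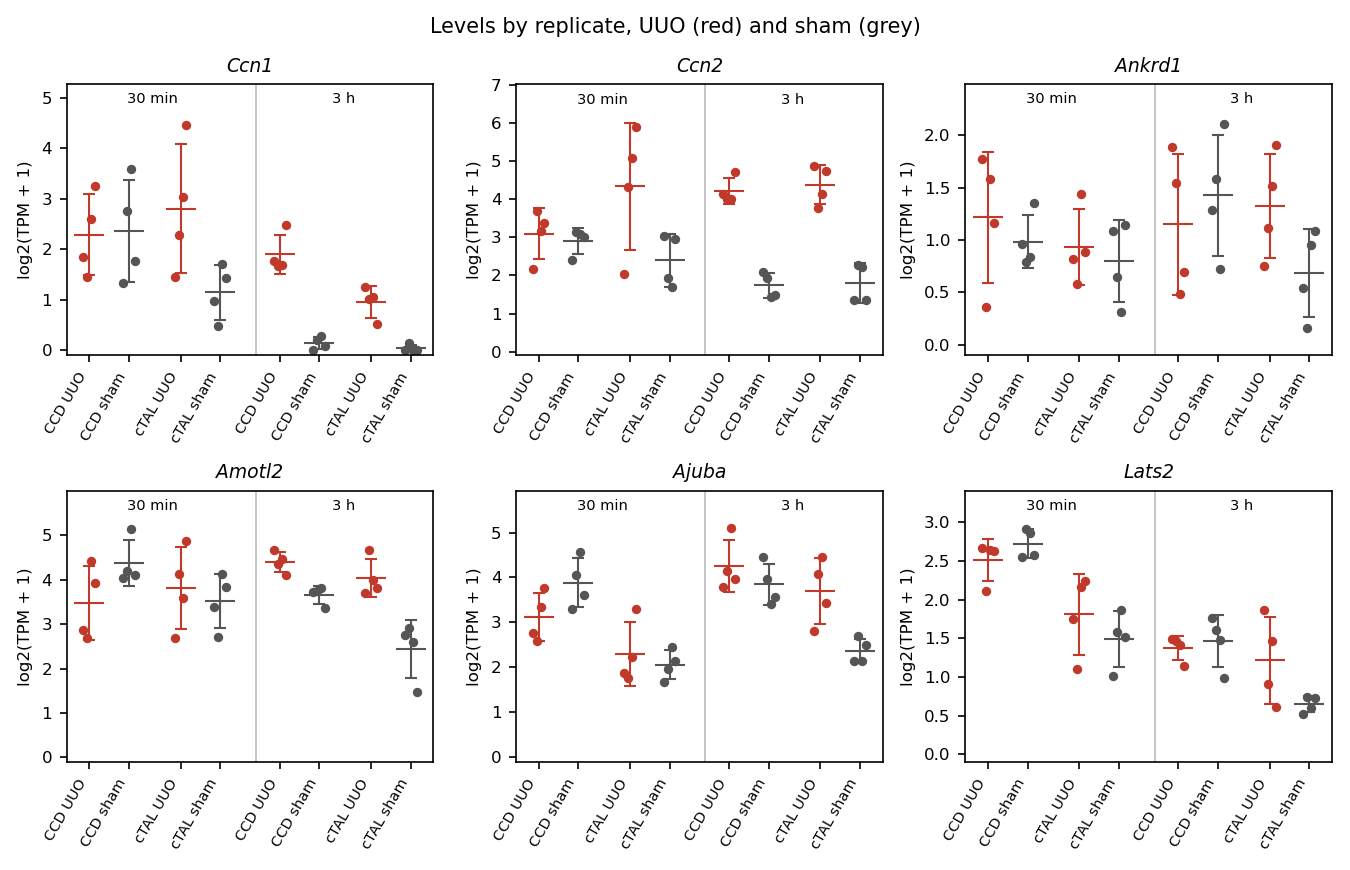
Levels of 6 genes by replicate in log2(TPM + 1), with mean and SD bars, UUO in red and sham in grey, for CCD and cTAL at 30 min (left of each panel) and 3 h (right). At 3 h the UUO points of Ccn1, Ccn2 and Amotl2 lie above all sham points in both segments, and those of Ajuba in cTAL; Ankrd1 and Lats2 overlap.

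At 3 h the secreted targets and the junctional inhibitor of YAP were higher with UUO. In CCD, Ccn2 stood at 17.6, 18.0, 15.3 and 25.5 TPM in UUO animals, against 3.29, 2.89, 1.77 and 2.02 TPM in sham animals. Every UUO value exceeded every sham value by a wide margin, and Ccn2 rose 5.58-fold on this scale (log2 change 2.48, SE 0.23, adjusted p = 0.00156, limma). Ccn1 stood at 2.46, 2.16, 2.32 and 5.02 TPM in UUO CCD, against 0, 0.17, 0.22 and 0.07 TPM in sham CCD. Its UUO and sham values did not overlap either. Ccn1 rose by 1.75 (SE 0.22, adjusted p = 0.00379, limma), or 3.37-fold on the log2(TPM + 1) scale, which understates the change of a gene this low. Only the UUO replicates of Ccn1 met the filter on low values. It could therefore be tested only by being higher with UUO, and this p-value is a description. Ccn1 was listed at 0 in 4 of the 8 sham CCD libraries and in none of the 8 UUO CCD libraries.

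Amotl2 rose less. It stood at 24.4, 19.4, 21.3 and 18.3 TPM in UUO CCD, against 12.3, 12.4, 13.2 and 9.38 TPM in sham CCD, again without overlap (1.66-fold, log2 change 0.73, SE 0.17, adjusted p = 0.0255, limma). This call was lost in 4 of the 8 fits that left out a replicate, at adjusted p-values of 0.0541 to 0.0637, and with library 1 (0.0578) or library 2 (0.241) of each replicate alone. Ajuba did not pass in CCD, at 12.9, 16.7, 33.1 and 14.8 TPM in UUO animals and 21.4, 15.1, 10.4 and 15.4 TPM in sham animals (log2 change 0.40, 95% interval -0.30 to 1.10). Its groups overlapped, with UUO replicate 3 above all others. The libraries of 1 replicate also disagreed on Ajuba, by as much as 2.44 on the log2 scale. The SD between such libraries was 0.71 for Ajuba, and the SD between replicates was 0.52. For the called genes at 3 h, the SD between libraries was 0.62 for Ccn2, 0.40 for Amotl2 and 0.37 for Ccn1. Their SD between replicates was 0.33 for Ccn2, 0.22 for Amotl2 and 0.29 for Ccn1. The first SD is of single libraries and the second of means of 2 libraries, which averaging narrows. The 2 are therefore not ranked against each other.

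Lats2 and Ankrd1 gave no call in CCD. Lats2 stood at 1.81, 1.75, 1.66 and 1.23 TPM in UUO animals and 2.53, 2.09, 1.80 and 1.00 TPM in sham animals, with overlap (log2 change -0.09, interval -0.56 to 0.39). Ankrd1 stood at 2.72, 2.00, 0.475 and 0.805 TPM in UUO animals and 1.66, 2.01, 0.750 and 3.35 TPM in sham animals, also overlapping (log2 change -0.27, interval -1.13 to 0.58). Axl, Yap1 and Tead1 did not pass the filter. Axl ranged over 0.265 to 1.66 TPM in UUO CCD and 0 to 0.61 TPM in sham CCD (two-sided exact permutation p = 0.143), and Yap1 and Tead1 overlapped near 0.

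Thus 3 of the 6 genes tested in CCD at 3 h were called, all higher, where 13.0% of all genes were called in either direction and 526 of the 10530 tested were higher. Ccn1 met the filter through the UUO replicates alone (2.16 to 5.02 TPM with UUO and 0 to 0.22 TPM with sham). A gene this low in sham tubules could be tested only by being higher with UUO. The p-value of Ccn1 and the count are therefore a description. The median log2 change of the 6 was 0.57, against -0.14 for all genes. All of the called genes had UUO replicates above all sham replicates, as did 6.25% of all genes tested. Principal cell markers, those of the segment itself, summed to 5404 to 9862 TPM in UUO CCD and 15593 to 18231 TPM in sham CCD. Of the 6 markers 5 were called lower with UUO, where 8.04% of all genes were called lower. Markers of other cell types also differed between the groups. Fibroblast, pericyte and smooth muscle markers summed to 17.6 to 74.9 TPM in UUO CCD and 5.69 to 16.8 TPM in sham CCD, with 2 of the 8 markers averaging 1 TPM or more in each group. Macrophage and leukocyte markers summed to 73.5 to 104.5 TPM in UUO CCD and 31.6 to 62.4 TPM in sham CCD (6 of 7 markers in each). Proximal tubule markers summed to 177 to 948 TPM in UUO CCD (5 of 7 markers) and 59.3 to 247 TPM in sham CCD (3 of 7). Red cell markers summed to 1494 to 7895 TPM in UUO CCD and 25.4 to 1187 TPM in sham CCD. Endothelial markers overlapped, at 35.7 to 57.7 TPM in UUO CCD and 20.7 to 113.5 TPM in sham CCD. The part of these cells in the Ccn1 and Ccn2 changes was not tested.

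In cTAL at 3 h, the secreted target Ccn2 rose as well. It stood at 28.4, 12.8, 16.6 and 25.9 TPM in UUO cTAL, against 1.58, 3.84, 3.70 and 1.55 TPM in sham cTAL, with no overlap (5.98-fold, log2 change 2.58, SE 0.35, adjusted p = 0.00297, limma). Ccn1 was low and missed the filter, but its groups did not overlap: it stood at 1.39, 1.01, 1.07 and 0.43 TPM in UUO cTAL, against 0, 0.11, 0 and 0 TPM in sham cTAL. It was listed at 0 in 3 of the 4 sham libraries (two-sided exact permutation p = 0.0286, the smallest that 4 against 4 allows). That p-value is unadjusted, and how often other genes under the filter separate in this way was not counted.

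Both junctional genes rose in cTAL. Amotl2 stood at 12.1, 24.3, 14.8 and 13.1 TPM in UUO cTAL, against 5.70, 6.52, 5.09 and 1.78 TPM in sham cTAL. The groups did not overlap, and the change was 3.05-fold (log2 change 1.61, SE 0.37, adjusted p = 0.0229, limma); without UUO replicate 2 the adjusted p was 0.0552. Ajuba stood at 5.97, 15.95, 21.0 and 9.76 TPM in UUO cTAL, against 3.42, 5.47, 3.42 and 4.62 TPM in sham cTAL. All UUO replicates lay above the sham replicates, UUO replicate 1 only just (2.51-fold, log2 change 1.33, SE 0.37, adjusted p = 0.0453, limma). The call was near the threshold: it was lost in 7 of the 8 fits that left out a replicate (adjusted p 0.0755 to 0.106) and held only without UUO replicate 1. It was also lost with the replicate number as a block (0.0706) and without the sham library rich in Aqp2 (0.0906).

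Of the low genes in cTAL, Tead1 gave UUO values of 0.62, 1.00, 1.78 and 0.82 TPM, against 0.08, 0.29, 0.35 and 0.09 TPM in sham cTAL. These groups did not overlap (two-sided exact permutation p = 0.0286, the smallest possible), although the gene missed the filter. As for Ccn1, that p-value is unadjusted and has no share of other genes under the filter beside it. Lats2 missed the filter as well, at 2.66, 0.88, 1.77 and 0.52 TPM in UUO cTAL and 0.44, 0.67, 0.51 and 0.65 TPM in sham cTAL, overlapping through UUO replicate 4 (exact permutation p = 0.0857). Axl gave lower values in UUO cTAL, at 1.25, 0.98, 0.82 and 2.11 TPM, against 3.81, 5.07, 3.13 and 1.04 TPM in sham cTAL. The groups overlapped through sham replicate 4, and Axl was not called (log2 change -0.82, SE 0.37, adjusted p = 0.175, limma). Ankrd1 was not called either (log2 change 0.64, interval -0.09 to 1.36).

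In cTAL at 3 h, 3 of the 5 genes tested were called, all higher, where 4.06% of all genes were called higher and 5.68% had all UUO replicates above all sham replicates. The median log2 change of the 5 was 1.33, against -0.12 for all genes. The marker sums moved differently from those of CCD. Fibroblast, pericyte and smooth muscle markers summed to 14.7 to 39.9 TPM in UUO cTAL and 7.27 to 58.1 TPM in sham cTAL, with 2 of the 8 at 1 TPM or more in each group. Macrophage and leukocyte markers summed to 64.3 to 171.1 TPM in UUO cTAL and 130 to 326 TPM in sham cTAL, and endothelial markers to 45.9 to 80.3 TPM in UUO cTAL and 51.6 to 314 TPM in sham cTAL. Proximal tubule markers were higher with UUO, at 208 to 790 TPM in UUO cTAL and 6.51 to 174 TPM in sham cTAL, where Slc5a12 was listed at 0. Red cell markers summed to 1834 to 11334 TPM in UUO cTAL and 29.8 to 3161 TPM in sham cTAL. Their part in the Ccn2, Amotl2 and Ajuba changes was not tested.

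**Figure D3:**
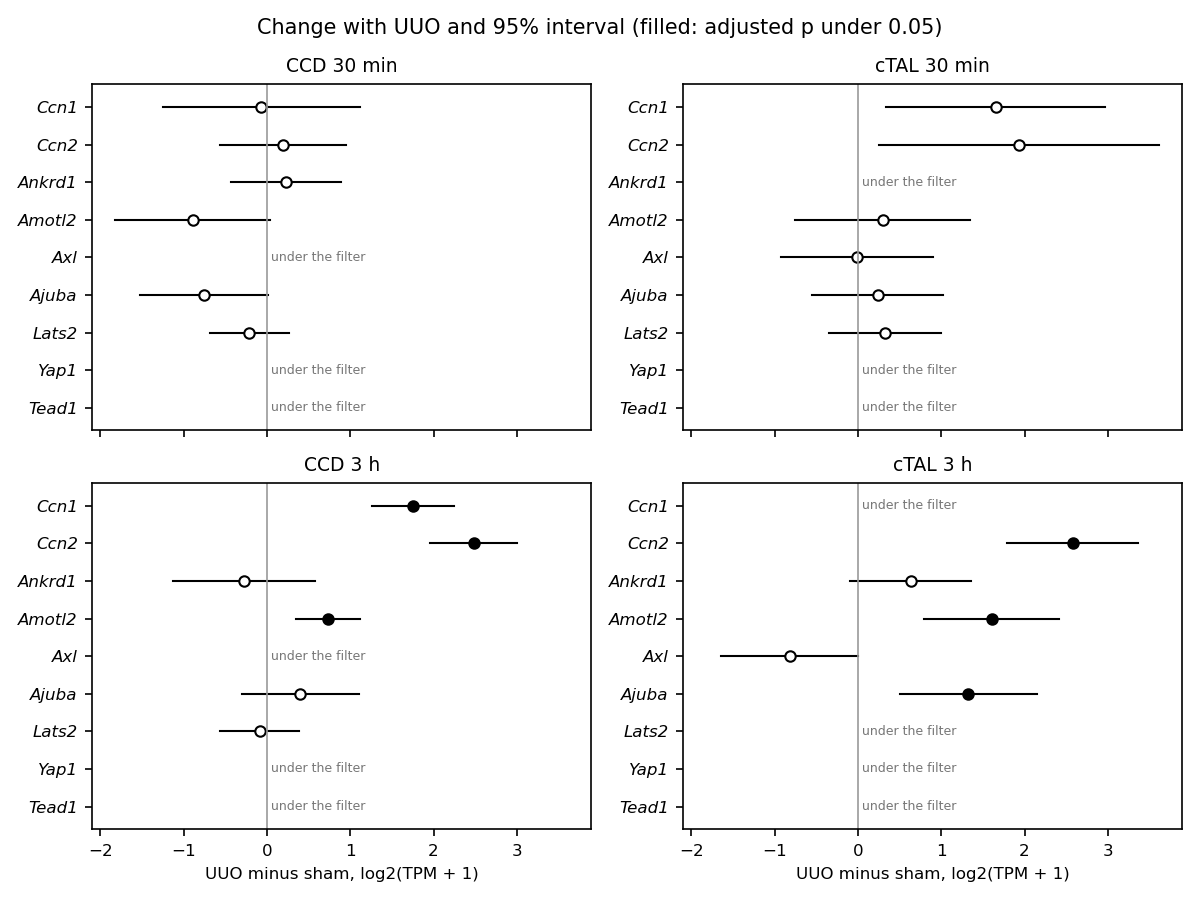
Change with UUO for the 9 genes in each segment and time, as the difference in log2(TPM + 1) with its 95% interval; filled points passed an adjusted p under 0.05, and genes under the filter on low values have no point. All called points, at 0.73 to 2.58, are at 3 h, and the 30 min intervals of Ccn1 and Ccn2 in cTAL are wide.

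No Hippo gene was called for a difference between segments at 3 h (0 of 7, against 1.08% of all genes, with 1644 genes at an unadjusted p under 0.05). For Ccn2 the change in CCD minus that in cTAL was -0.10 with a 95% interval of -0.95 to 0.75. The same quantity was -0.93 for Ajuba (adjusted p = 0.253, limma), -0.87 for Amotl2 (0.286), 0.83 for Ccn1 (0.332) and 1.21 for Axl (0.109). On the log2(TPM + 1) scale the junctional genes thus had their larger changes in cTAL and Ccn1 in CCD, but not by more than the test could separate. Ccn1 was under the filter in cTAL, where mean log2 levels turned back to TPM were 0.942 with UUO and 0.0264 with sham. In CCD they were 2.73 and 0.108. The scale understates changes at such levels, so the order of the segments for Ccn1 holds on this scale only.

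Between the times, the change of Ccn2 in CCD was larger at 3 h than at 30 min, by 2.29 (SE 0.42, adjusted p = 0.0197, limma). It was the only 1 of 6 Hippo genes called, where 1.29% of all genes were called higher in this test. The call was lost in 3 of the 16 fits that left out a replicate. Ccn1 gave 1.82 (adjusted p = 0.157, limma) and Amotl2 1.63 (0.106). The sham arms enter these values as well as the UUO arms. Mean log2 levels turned back to TPM were 7.59 in UUO and 6.50 in sham CCD for Ccn2 at 30 min, and 17.6 and 2.34 at 3 h. For Ccn1 they were 3.89 in UUO and 4.12 in sham CCD at 30 min, and 2.73 and 0.108 at 3 h. Each time has its own table, so time and any batch cannot be told apart. In cTAL none of 7 was called (2.28% of all genes in either direction), and Ccn2 gave 0.64 with an interval of -1.21 to 2.50.

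**Figure D4:**
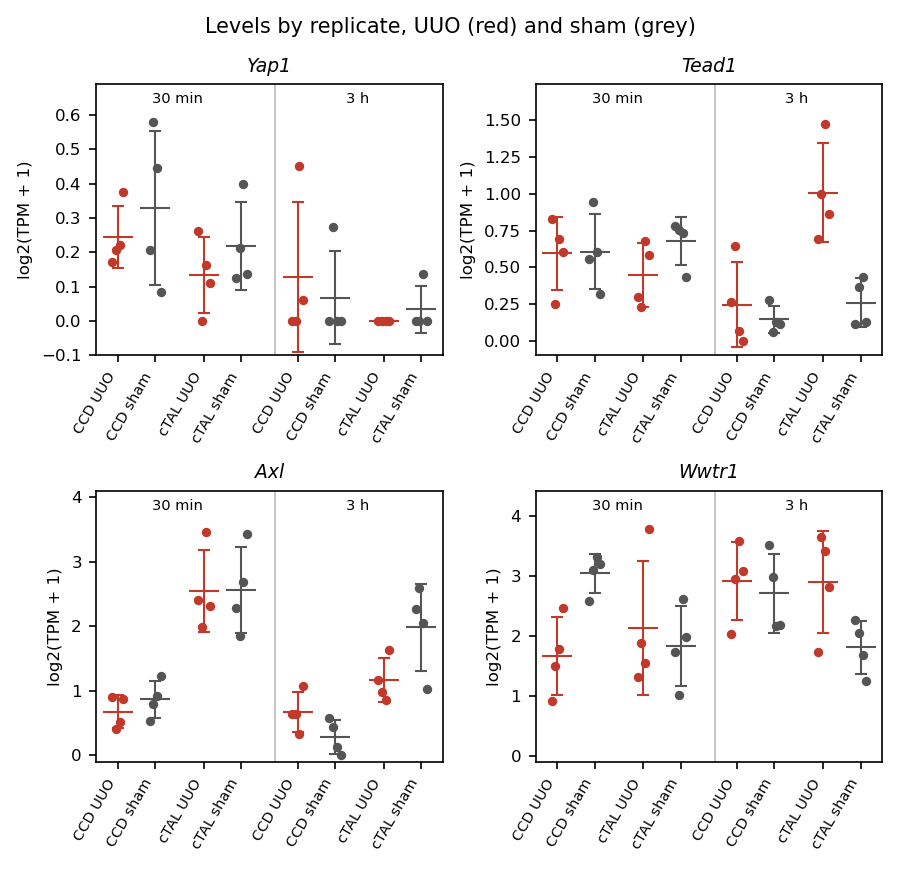
Levels by replicate in log2(TPM + 1) of Yap1, Tead1, Axl and Wwtr1 (TAZ), with mean and SD bars, UUO in red and sham in grey, for CCD and cTAL at 30 min and 3 h. The vertical scales differ: Yap1 stays below 0.6, Tead1 separates by group in cTAL at 3 h while under the filter, and Axl is higher in cTAL than in CCD at 30 min.

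The rest of the pathway was counted from 4 lists of known genes: 7 core kinases and their partners, 23 upstream regulators, 9 transcriptional effectors and 22 genes of a YAP/TEAD target signature, of which 7, 22, 8 and 21 were found in the tables. Several of the 9 genes recur in these lists. Calls of listed genes outside the 9 were not recomputed under other settings or with a replicate left out, so their stability was not tested. At 30 min none of the listed genes was called in either segment. The smallest p-values in CCD belonged to Mob1b (-0.62) among the core kinases, the polarity gene Scrib (-0.66) among the regulators and the kinase gene Nuak2 (-1.56) in the signature, and in cTAL to Stk4 (-0.44), Crb3 (-0.27), Tead3 (-0.14) and Ccn1. TAZ (Wwtr1) came nearest among the effectors in CCD, with 0.885 to 4.55 TPM in UUO animals and 6.19 to 10.1 TPM in sham animals and no overlap (log2 change -1.38, SE 0.33, adjusted p = 0.235, limma). In CCD at 30 min, 8.31% of all genes had every UUO replicate below every sham replicate.

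No core kinase gene was called at 3 h: 0 of 6 tested in CCD and 0 of 4 in cTAL, where 13.0% and 11.7% of all genes were. At 3 h 8.04% of all genes were called lower in CCD and 7.64% in cTAL. The lowest p in CCD was for Stk3, at 15.4 to 22.5 TPM in UUO animals and 22.6 to 26.8 TPM in sham animals (log2 change -0.46, adjusted p = 0.0754, limma), and in cTAL it was for Sav1 (0.40, adjusted p = 0.519). Medians of the list were -0.02 in CCD and -0.01 in cTAL.

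Among upstream regulators, 3 of 13 tested rose in CCD and 0 fell, and 3 of 13 rose and 1 fell in cTAL. Of all genes tested, 526 of 10530 were called higher and 8.04% lower in CCD, and 4.06% higher and 7.64% lower in cTAL. Rassf1, a tumour suppressor that binds the Stk3 and Stk4 kinases, rose in both. It stood at 52.5, 72.7, 75.2 and 104 TPM in UUO CCD, against 22.6, 31.1, 32.1 and 31.9 TPM in sham CCD, with no overlap (2.48-fold, log2 change 1.31, SE 0.21, adjusted p = 0.00782, limma). In cTAL Rassf1 ranged over 62.2 to 124 TPM with UUO and 19.1 to 25.6 TPM with sham (3.84-fold, adjusted p = 0.00127). The related gene Rassf6 fell in cTAL, at 9.54 to 15.99 TPM in UUO animals and 27.2 to 31.8 TPM in sham animals (log2 change -1.27, SE 0.21, adjusted p = 0.00665, limma). Crb3, an apical polarity protein, rose in CCD, at 199 to 290 TPM with UUO and 146 to 165 TPM with sham (1.57-fold, adjusted p = 0.0156, limma). The remaining called regulators were Amotl2 in both segments and Ajuba in cTAL.

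Of 3 effectors tested in each segment, Vgll4, which competes with YAP for TEAD, fell in CCD, at 82.9 to 110.0 TPM with UUO and 112.7 to 137.3 TPM with sham (log2 change -0.40, SE 0.11, adjusted p = 0.0484, limma). The adjusted p of Vgll4 lay just under the threshold. In cTAL it gave -0.63 (adjusted p = 0.0943), and TAZ (Wwtr1) gave 1.09 (adjusted p = 0.131). In the target signature, 3 of 13 genes rose and 1 fell in CCD, and 3 of 14 rose in cTAL. Set against these, and against the 1 of 3 effectors that fell in CCD, 526 of 10530 genes were called higher and 8.04% lower in CCD, and 4.06% higher in cTAL. The risers in CCD were Ccn2, Ccn1 and Amotl2. The gene that fell was Nt5e, an ecto-nucleotidase, at 8.61 to 11.3 TPM with UUO and 13.6 to 21.4 TPM with sham (log2 change -0.75, SE 0.18, adjusted p = 0.0265, limma). In cTAL the risers were Ccn2, Amotl2 and Gadd45a, a DNA damage and stress response gene that is also regulated outside the YAP programme. Gadd45a stood at 773 to 900 TPM in UUO cTAL and 368 to 514 TPM in sham cTAL (1.97-fold, adjusted p = 0.00178, limma). Its change in CCD minus that in cTAL was -0.80 (adjusted p = 0.0298). The median of the signature was -0.04 in CCD and 0.16 in cTAL, against -0.14 and -0.12 for all genes, and 9 of its 13 tested genes in CCD and 11 of 14 in cTAL were not called.

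**Figure D5:**
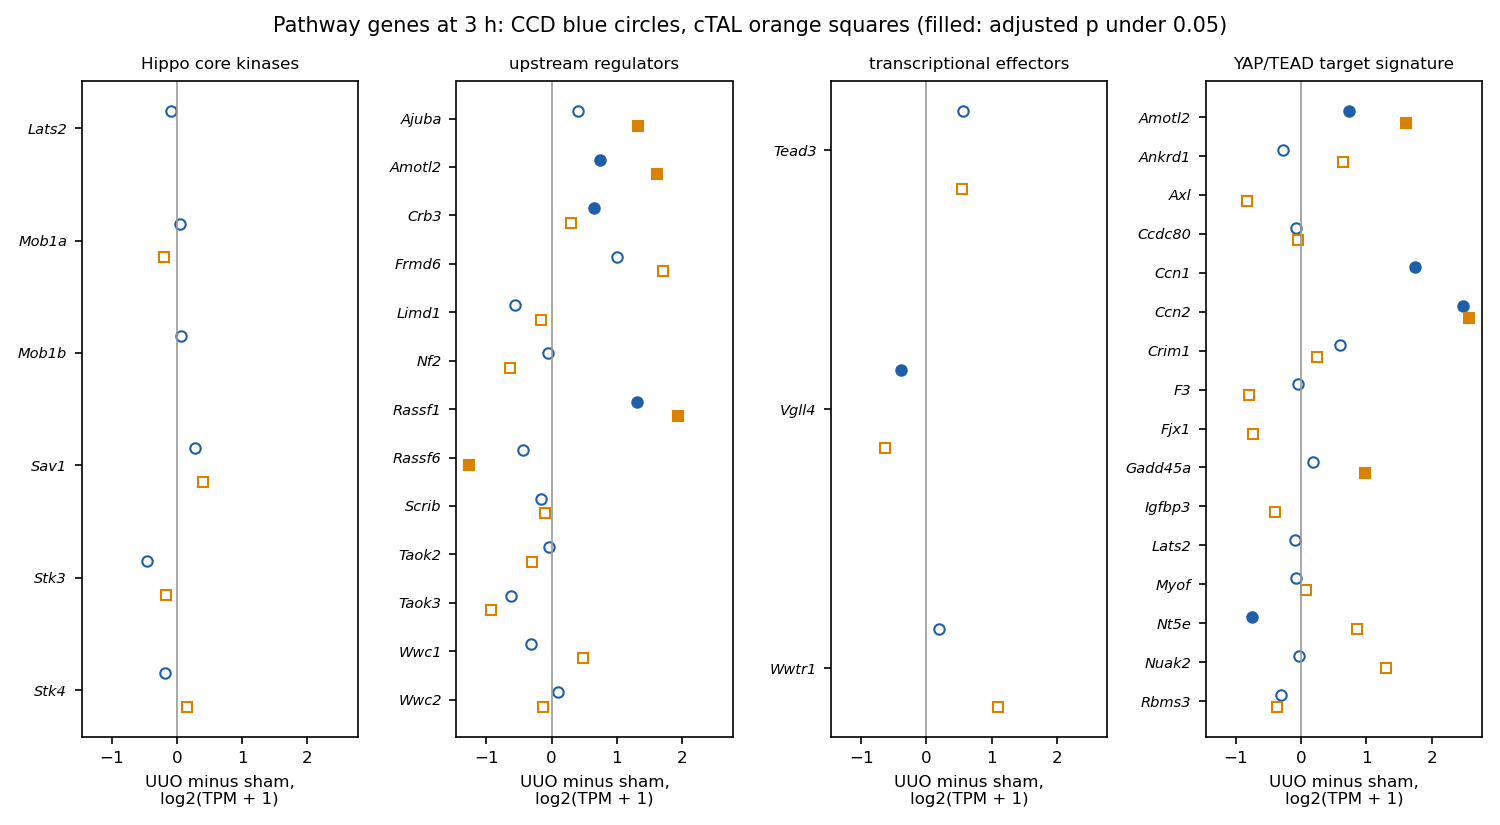
Change with UUO at 3 h of the tested genes of the 4 lists, as the difference in log2(TPM + 1), CCD as blue circles and cTAL as orange squares, filled where the adjusted p was under 0.05. Core kinases cluster around 0, while Rassf1 rises in both segments and Ccn2 reaches 2.48 in CCD and 2.58 in cTAL.

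Genes with the most similar pattern were ranked by the smaller of 2 Pearson correlations of log2(TPM + 1) over the 16 replicates of each time, among 6756 genes averaging 5 TPM or more at both times. Those replicates share segment and treatment, so the values are a description. Ccn2 was most like Dusp1, an immediate early phosphatase (0.71), Lysmd3 (0.68) and Tsc22d3, a glucocorticoid-induced gene (0.60). Amotl2 was most like Vasn (0.90), the focal adhesion protein gene Zyx (0.88) and Cdkn2aip (0.88). Ajuba was most like Abhd17a (0.94), LOC103689931 (0.93) and the translation factor Eif3b (0.92). The other 6 genes averaged under 5 TPM at one time or both and were not ranked.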

How the data were processed

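RNA was copied with SMARTer V4 and made into libraries with Nextera XT, per the labels' protocols, which state no strand. The submitters' processing notes name the aligner STAR 2.7.3, the quantifier RSEM 1.3.3 and the rat build Rnor_6.0. The authors deposited TPM per gene in 1 table per time, and TPM keep no depth, so no interval or detection limit that needs counts is given.

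The 9 genes and the pathway, marker and motif lists were chosen with earlier results of these data known. Genes were matched by symbol at 30 min and by Ensembl identifier at 3 h. Whole-kidney samples (8) were not analysed here. Each CCD replicate is the mean of its 2 libraries on the log2(TPM + 1) scale, and the CCD replicate TPM printed are arithmetic means of both. No libraries held identical values.

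Genes of 1 TPM or more in 4 or more replicates entered a moderated linear model with trend (limma 3.58.1 under R 4.3.3), with Benjamini-Hochberg adjustment over all genes tested; the code was checked on simulated data. The p-values measure the spread between numbered replicates. Genes under the filter had a two-sided exact permutation test, whose smallest p with 4 against 4 is 0.0286. Segment differences used CCD minus cTAL within a number, and time differences the change at 3 h minus that at 30 min. The text names the 9 genes, up to 4 called genes of each list per comparison or, with no called gene, the lowest p-value, and TAZ, chosen after its values were seen; 1 listed upstream regulator is not reported here and is left out of the counts. Promoters are RefSeq's, build GRCr8, matched by symbol. UUO and sham replicates of the same number had positive correlations for every number in CCD at 30 min only (0.115 to 0.229). Even there UUO replicate 3 was closer to sham replicate 4 (0.298) than to its own number. The block changed no call among the 9 genes in CCD at 30 min. Figures used matplotlib 3.10.9 under Python 3.11.15. Alternatives were other pseudocounts, filters, scalings and variance models, single CCD libraries, a replicate block and each replicate left out.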

Additional observations from a re-analysis of the deposited data

Results flagged for a closer look

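Among 71 sets of 4 replicate values over the 9 genes, 8 held a value far from the other 3 (beyond Dixon's 95% critical value). Chance flags about 1 in 20 such sets of normal values. That rate does not hold where the other 3 values were all listed at 0, since any value above 0 is then flagged. This was so at 3 h for Ccn1 in sham cTAL and for Yap1 in sham CCD and sham cTAL. Ccn1 stood at 5.015 TPM in replicate 4 of UUO CCD at 3 h, above the other UUO replicates. That value came from library 2 of the replicate (7.34 TPM, against 2.69 TPM in library 1), the CCD library with Umod at 18235 TPM. Without the libraries rich in the other segment's marker, Ccn1 rose by 1.59 (adjusted p = 0.00222, limma), and without UUO replicate 4 by 1.56 (0.00408). As Ccn1 met the filter through UUO replicates alone, these p-values are a description too. Ccn1 stood at 0.11 TPM in replicate 2 of sham cTAL at 3 h, where the others were listed at 0. Amotl2 stood at 35.48 TPM in replicate 3 of sham CCD at 30 min, and Lats2 at 3.34 TPM in replicate 2 of UUO CCD at 30 min. Yap1 stood at 0.385 TPM in replicate 3 of UUO CCD, at 0.23 TPM in replicate 2 of sham CCD and at 0.1 TPM in replicate 3 of sham cTAL, all at 3 h. Tead1 stood at 0.35 TPM in replicate 4 of sham cTAL at 30 min.

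Differences between segments or times that passed the test concerned 4 genes besides Ccn2. In CCD the change at 3 h minus that at 30 min was 2.29 for Ccn2, 1.65 for Rassf1 and 0.93 for Crb3. In cTAL it was 1.63 for Rassf1 and -1.19 for Rassf6. For Gadd45a at 3 h the change in CCD minus that in cTAL was -0.80.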

How the results depend on the processing

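Over all alternatives, 1148 values of the 9 genes were recomputed, and 1085 were counted as the same. These lay on the same side of the threshold and kept their direction, or were uncalled and changed sign by less than the SE of the main fit. Of the rest, 41 lost a call and 7 gained one. Another 15 were uncalled values that changed sign by at least that SE, and 0 called values changed sign. Most of the 1148 belong to results that were not called in the main fit and could not lose a call. The 41 are therefore a larger share of the values that could. In CCD and cTAL at 30 min, for segment differences at 3 h and for time differences in cTAL, 0 of the 9 genes were called under any alternative. In CCD at 3 h the count of 3 ranged over 2 to 3 with a replicate left out, and in cTAL at 3 h over 1 to 3 (1 without UUO replicate 2). For segment differences at 30 min the count of 0 became 1 (Ajuba) with CCD library 1 alone and ranged over 0 to 1 with a replicate left out. For the time difference in CCD the count of 1 became 2 at a pseudocount of 0.1, with Ccn1 added, 0 with no filter and 0 with CCD library 2 alone, and ranged over 0 to 2 with a replicate left out. For CCD against cTAL in sham animals the count of 5 at 30 min became 2 with a mean of at least 5 TPM, 3 after median-of-ratios rescaling and 3 after quantile normalization, and the count of 4 at 3 h became 2 with a mean of at least 5 TPM. That count was 3, with Lats2 lost, at a pseudocount of 0.1, with no filter, after median-of-ratios rescaling, after quantile normalization and without the libraries rich in the other segment's marker. With CCD library 2 alone it was also 3, with Lats2 and Ajuba lost and Ankrd1 gained, and with a sham replicate left out it ranged over 3 to 4, with Lats2 lost in 3 of those 4 fits. The stricter filter removes low genes from the test, and for the other settings the cause was not tested.

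With the replicate block, 3 of the 9 genes were called in CCD and 2 in cTAL at 3 h, and over all genes the calls at 3 h were 770 in CCD and 580 in cTAL, against 1373 and 1173 without it. Only in CCD at 30 min were the correlations of same-numbered UUO and sham replicates all positive, and they were weak. A number shared by UUO and sham need not mark a shared animal or day. Over all genes, the 3 calls in CCD at 30 min became 878 with library 1 alone, the calls in CCD at 3 h ranged over 456 to 1638 and those in cTAL at 3 h over 471 to 1221, segment differences over 0 to 781 at 30 min and 10 to 165 at 3 h, and time differences over 21 to 310 in CCD and 149 to 350 in cTAL. Sham segment calls at 3 h ranged over 2619 to 4176. Leaving out the libraries rich in the other segment's marker left 3 called genes in CCD and 2 in cTAL at 3 h, and no library met those limits at 30 min. Leaving out the CCD library with the fewest genes at 1 TPM at 30 min, chosen after seeing the data, changed no call among the 9 genes. TPM give no depth, so counting error could not be set apart from the spread between replicates.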
